A study of Homo sapiens with 10 samples.

Results

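The collagens, laminin chains, matrix metalloproteases (MMPs), tissue inhibitors of metalloproteases (TIMPs), ADAM and ADAMTS proteases and serpins build, cut and protect the extracellular matrix. They were followed here in 3 subsets of MDA-MB-231, an established breast cancer cell line of human origin and mesenchymal appearance. Members were chosen by gene name, with earlier results of these data known. They are every probe set whose platform annotation gives a single gene symbol with a listed prefix. The prefixes are COL and a digit, LAMA or LAMB and a digit, LAMC, MMP, TIMP, ADAM or SERPIN. This gave 118 genes, of 12082 that a probe set names alone, and 183 probe sets, of 25750 in all. The prefixes also took in 7 genes annotated in RefSeq as noncoding RNAs or pseudogenes, none of them bright enough for the test. A gene with several probe sets is represented by the brightest one, and for some genes others that differ are given.

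The cells carried GFP under the Oct4A promoter from a stably integrated plasmid (pEGFP1-Oct3/4) with neomycin selection, in all subsets alike, and were sorted by their fluorescence. Oct4hi breast cancer cells (BCCs) were the brightest 5% (4 arrays), Oct4med BCCs had intermediate fluorescence (2 arrays) and Oct4low BCCs were the dimmest (4 arrays). The labels give no treatment for any subset. GFP stands for the activity of an introduced promoter, not for the protein, and each array holds the average over a gate of 1 cell line, without stroma or a host. The study states that the RNA came from 4 sets of cells. Nothing in the labels ties arrays of different subsets together, and the p-values rest on the spread between arrays of a subset.

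Values are log2 intensities, normalized by the authors, and a difference of 1 is a 2-fold change. Array medians lay between 5.05 and 5.14. Within a subset the median SD was 0.12, and arrays correlated with r of 0.987 to 0.994 across probe sets, against 0.957 to 0.981 between subsets. A probe set was tested if it reached the array median on 2 arrays or more, which 13872 did, and a change was called at an adjusted p under 0.05 (limma's moderated test, Benjamini-Hochberg). Of the members, 85 of 183 probe sets (46.4%) and 63 of 118 genes were tested, against 53.9% of all probe sets. No tested member had passed through 1 subset alone. The genes CD44 and CAV1, both known in MDA-MB-231 cells, were bright (10.87 to 11.22 and 12.04 to 12.40 as subset means), and both were lower in Oct4hi against Oct4low BCCs (-0.35 each, adjusted p = 0.00178 and 0.00142, limma). For MSN, another gene of that list, the brightest probe set among the deposited values was too dim for the test (4.90 to 5.18). The authors left out features with little change, so this does not give the level of the gene. Vimentin was read only by a probe set with the suffix _x_at, at 3.75 to 4.04, below the array medians, and E-cadherin (CDH1) lay at 3.92 to 4.19. The log2 values of CD44, CAV1, MSN and vimentin summed to 31.6 to 32.1 in Oct4hi, 32.1 to 32.5 in Oct4med and 32.4 to 32.6 in Oct4low BCCs.

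Matrix is held in 2 main forms. Interstitial matrix is built on fibrillar collagens, and the thin basement membrane under epithelia on a network of type IV collagen joined to a network of laminin trimers. MMPs, ADAMTS enzymes and some serine and cysteine proteases cut these proteins, TIMPs block metalloproteases, and serpins trap serine proteases by a suicide mechanism. ADAMs sit in the membrane and mostly release the outer parts of other membrane proteins. Breast cancer cells of invasive lines make many of these proteins themselves.

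Among the members with a promoter window, COL4A1 with COL4A2 and COL4A3 with COL4A4 overlap, and the first pair, which was bright enough to be tested, is shown by sequence. They encode the 2 chains of the common type IV collagen trimer and lie head to head on chromosome 13, so that their promoter windows in RefSeq (GRCh38.p14, 250 bases before to 50 after each start) overlap by 226 bases. The 126 bases between the annotated starts, chr13:110307158-110307283, are given 5′ to 3′ on the plus strand, the strand of COL4A2. The capitals mark the letters CCAAT, the only match on either strand.
COL4A1 and COL4A2, between the starts: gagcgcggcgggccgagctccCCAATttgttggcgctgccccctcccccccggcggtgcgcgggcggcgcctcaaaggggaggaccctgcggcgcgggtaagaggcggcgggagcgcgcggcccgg
The stretch has a G and C content of 80.2%. The letters CCAAT, chosen after the sequence was seen, stood on either strand in 31.9% of 94 member windows and in 34.6% of 35116 windows of all genes.

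Across the 3 subsets, 39 of 85 member probe sets differed by limma's moderated F-test, a share close to the 44.5% of all tested probe sets. By gene, 29 of 63 differed, against 43.8% of all genes. In bulk RNA, fewer cells of a type and less RNA per cell cannot be told apart. In Oct4hi against Oct4low BCCs, 18 member probe sets were higher and 16 lower, where the background was 18.2% higher and 16.7% lower. In Oct4med against Oct4low BCCs 6 were higher and 11 lower (background 5.19% and 15.5%), and in Oct4hi against Oct4med BCCs 17 were higher and 8 lower (18.2% and 8.61%). Quantile normalization of the values turned the last 2 splits to 9 higher and 7 lower, and to 12 higher and 15 lower. The first became 13 higher and 14 lower. The share of all probe sets called after that normalization is not given here, so these moves cannot be set against a background. Counted by gene, 13 of 63 were higher and 12 lower in Oct4hi against Oct4low BCCs (background 20.4% and 14.8%), 5 higher and 10 lower in Oct4med against Oct4low BCCs (5.68% and 11.7%) and 13 higher and 8 lower in Oct4hi against Oct4med BCCs (18.2% and 9.63%). These shares lay near the background, so that the set as a whole did not stand out in number, and its genes moved in both directions.

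**Figure D1:**
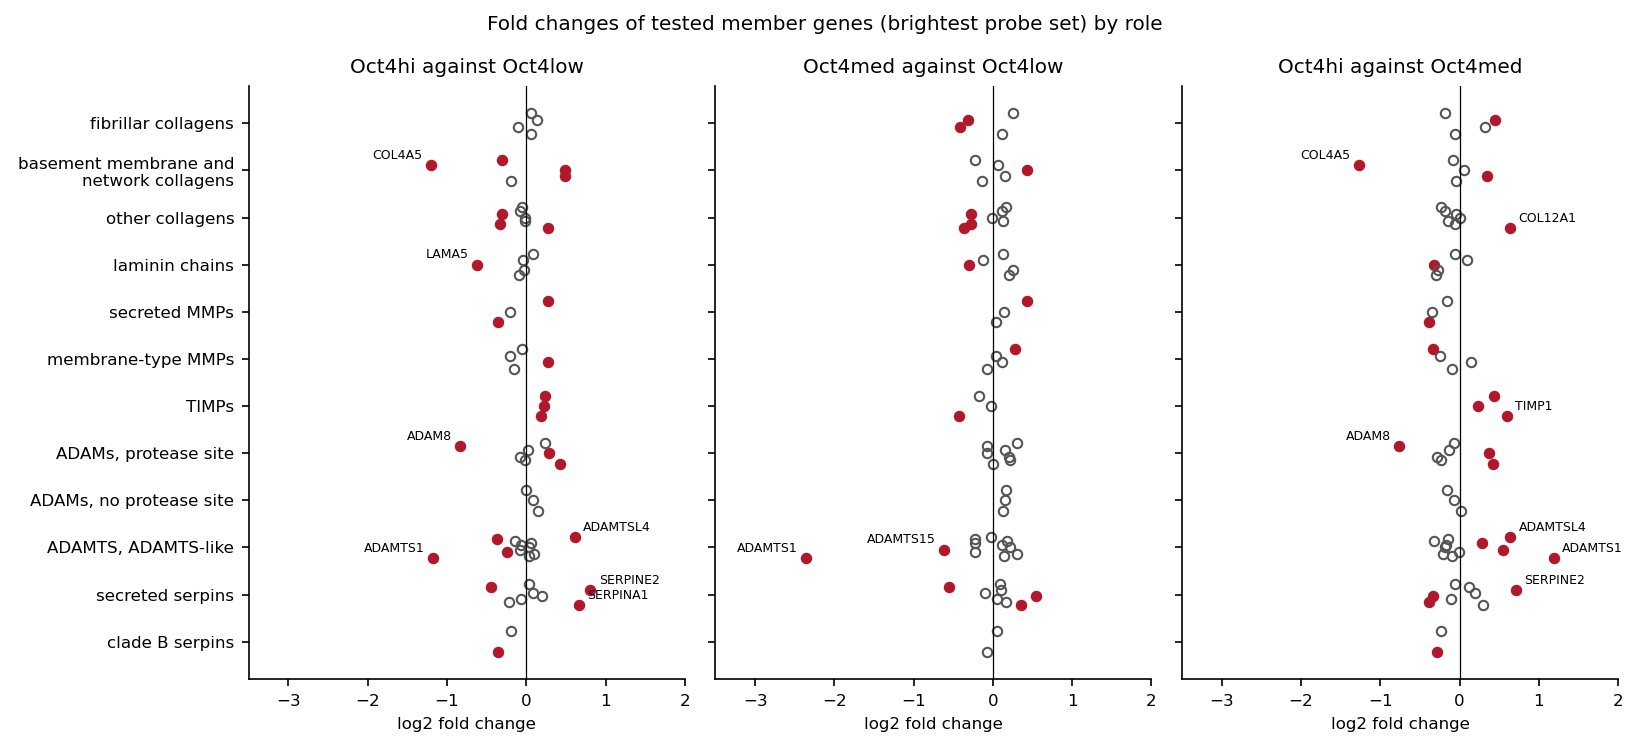
Log2 fold change (horizontal axis) of each of the tested genes, by brightest probe set and by role (rows), in the 3 comparisons; filled red points passed an adjusted p of 0.05 and open points did not, and MMP24OS is not drawn. ADAMTS1 had the change farthest below 0 (-2.36, Oct4med against Oct4low BCCs) and COL4A5 the one next to it (-1.27, Oct4hi against Oct4med BCCs), while the 3 TIMPs lie right of 0 in both comparisons of Oct4hi BCCs.

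Basement membrane collagens moved apart. COL4A1 rose in Oct4hi BCCs: its 4 Oct4hi arrays read 11.15, 11.20, 11.22 and 11.20, the Oct4med arrays 10.85 and 10.84, and the Oct4low arrays 10.76, 10.64, 10.74 and 10.66. All Oct4hi arrays were above all others, with a change of 0.49 (SE 0.06, adjusted p = 0.000171, limma) against Oct4low BCCs. A dimmer probe set of COL4A1 gave 0.55 (SE 0.08, adjusted p = 0.000384, limma). COL4A2, its partner chain, read 7.86, 7.66, 7.62 and 7.66 in Oct4hi BCCs, 7.55 and 7.73 in Oct4med BCCs, and 7.31, 7.25, 7.13 and 7.16 in Oct4low BCCs. It rose in Oct4hi BCCs by 0.49 (SE 0.08, adjusted p = 0.000861, limma) and in Oct4med BCCs by 0.43 (adjusted p = 0.0103, limma) over Oct4low BCCs. The second call was lost without Oct4med replicate 2 (adjusted p = 0.084). In the Oct4med arrays COL4A1 was 0.15 above Oct4low BCCs (95% interval -0.02 to 0.32, adjusted p = 0.203, limma). The interval for COL4A2 was 0.21 to 0.64, which overlaps it. The dimmer probe set of COL4A1 gave 0.21 there (adjusted p = 0.155, limma). Oct4hi over Oct4med BCCs was 0.34 for COL4A1 (adjusted p = 0.00786, limma) and 0.06 for COL4A2 (95% interval -0.15 to 0.27). The 0.34 rests on only 2 Oct4med arrays, and was 0.35 without Oct4med replicate 1. When the values were quantile normalized again it fell to 0.18 and was not called (adjusted p = 0.124, limma). The difference between the partners was not tested.

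COL4A5, a chain of the type IV collagen of kidney, eye and ear basement membranes, went the other way. It read 6.34, 6.21, 6.14 and 6.16 in Oct4hi BCCs, 7.35 and 7.61 in Oct4med BCCs, and 7.38, 7.53, 7.51 and 7.25 in Oct4low BCCs. The Oct4hi arrays lay about 1 log2 unit under both other subsets with no overlap. The change was -1.20 (SE 0.09, adjusted p = 1.98e-06, limma) against Oct4low BCCs and -1.27 (SE 0.11, adjusted p = 9.55e-06, limma) against Oct4med BCCs, whereas Oct4med and Oct4low BCCs differed by 0.06 (95% interval -0.17 to 0.30). COL7A1, the anchoring fibril collagen under skin and other surface epithelia, was at 7.43 ± 0.14 in Oct4hi, 7.51 ± 0.057 in Oct4med and 7.74 ± 0.12 in Oct4low BCCs (SD, n = 4, 2 and 4). It was called lower in Oct4hi against Oct4low BCCs (-0.31, adjusted p = 0.0174, limma), but not without Oct4hi replicate 2 or Oct4low replicate 4 (0.0526 to 0.0537). The brighter probe set of COL18A1, the precursor of endostatin, passed in no comparison, and its second probe set was lower in Oct4med than in Oct4low BCCs (-0.35, adjusted p = 0.0225, limma) and higher in Oct4hi than in Oct4med BCCs (0.49, adjusted p = 0.00333, limma). COL4A3, COL4A4, COL8A1, COL8A2, COL10A1 and COL15A1 were below the level of the test.

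Of the laminin chains, LAMA5 stood out. This alpha chain belongs to the laminins most widespread in adult basement membranes. LAMA5 read 9.40, 9.32, 9.37 and 9.45 in Oct4hi BCCs, 9.67 and 9.76 in Oct4med BCCs, and 9.99, 9.95, 10 and 10.10 in Oct4low BCCs. The 3 subsets did not overlap, and Oct4med BCCs stood in the middle. LAMA5 fell in Oct4hi against Oct4low BCCs by 0.62 (SE 0.07, adjusted p = 4.5e-05, limma). The steps of -0.30 (Oct4med against Oct4low, adjusted p = 0.0258) and -0.32 (Oct4hi against Oct4med, adjusted p = 0.0139) were called as well. The first was lost without Oct4med replicate 1 or Oct4low replicate 4 (0.0571 to 0.148) and the second without Oct4med replicate 2 (0.0654). LAMB1, a beta chain that pairs with LAMA5, was near 10 in every subset (10 ± 0.049 in Oct4hi, 9.91 ± 0.27 in Oct4med and 10.04 ± 0.23 in Oct4low BCCs), and Oct4hi minus Oct4low was -0.04 (95% interval -0.29 to 0.22). LAMA1, LAMA4 and LAMC3 did not pass in any comparison, with means between 4.70 and 5.67. LAMA2 and LAMB4 were too dim to be tested, and other laminin chains are not analysed here.

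Fibrillar collagens, the rope-like collagens of interstitial matrix, had 4 of 8 genes tested. By brightest probe set, none passed in Oct4hi against Oct4low BCCs, where 20.4% of all genes were higher and 14.8% lower. In Oct4med against Oct4low BCCs 2 were lower, where 11.7% of all genes were. COL5A1, which starts and limits the thickness of collagen fibrils, read 9.81, 9.82, 9.81 and 9.83 in Oct4hi BCCs, 9.32 and 9.41 in Oct4med BCCs, and 9.63, 9.57, 9.79 and 9.72 in Oct4low BCCs. Both Oct4med arrays were the lowest of all. Oct4hi minus Oct4med was 0.45 (SE 0.09, adjusted p = 0.00275, limma), and a second probe set gave 0.41 (adjusted p = 0.00622, limma). Oct4med minus Oct4low was -0.31 (adjusted p = 0.0247, limma), lost without Oct4med replicate 1 or Oct4low replicate 4 (0.0518 to 0.145). The second probe set gave -0.19 there (adjusted p = 0.153), and was higher in Oct4hi than in Oct4low BCCs (0.22, adjusted p = 0.0353, limma), where the brighter one gave 0.14 (adjusted p = 0.129). The 2 tested probe sets of COL1A1, the main chain of type I collagen, disagreed: Oct4med minus Oct4low was -0.42 (adjusted p = 0.0231, limma) for the brighter one and 0.21 (adjusted p = 0.156) for the other. The first call was lost without Oct4med replicate 1, Oct4med replicate 2 or Oct4low replicate 2 (0.0538 to 0.143). Its usual partner COL1A2 lay at 3.42, 3.41 and 3.30 in Oct4hi, Oct4med and Oct4low BCCs, and COL2A1, COL5A2 and COL27A1 were also too dim for the test.

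Among collagens of fibril surfaces, beaded filaments and membranes, 7 of 16 genes were tested. COL12A1, which coats fibrils, was lowest in Oct4med BCCs: it read 7.44, 7.62, 7.58 and 7.67 in Oct4hi, 6.81 and 7.07 in Oct4med, and 7.23, 7.30, 7.42 and 7.27 in Oct4low BCCs. Oct4hi BCCs were higher than Oct4med BCCs by 0.63 (SE 0.10, adjusted p = 0.0011, limma). The differences of 0.27 between Oct4hi and Oct4low BCCs (adjusted p = 0.025) and of -0.36 between Oct4med and Oct4low BCCs (adjusted p = 0.0278) were called, but leaving out any of 5 arrays (Oct4hi replicate 2 or 4, Oct4low replicate 1, 2 or 4) ended the first (0.0542 to 0.0642) and any of 3 (Oct4med replicate 1, Oct4low replicate 2 or 3) the second (0.0564 to 0.252). A dim probe set of COL12A1, fitted without the filter on low values, gave -0.02 for Oct4hi minus Oct4low (adjusted p = 0.93, limma). It was also lowest in Oct4med BCCs (-0.62 against Oct4low BCCs, adjusted p = 0.0111, limma). Another dim one gave -0.09 for Oct4hi minus Oct4low and 0.07 for Oct4med minus Oct4low. COL13A1, a collagen anchored in the cell membrane, read 11.24, 11.23, 11.23 and 11.29 in Oct4hi, 11.23 and 11.38 in Oct4med, and 11.50, 11.54, 11.74 and 11.54 in Oct4low BCCs. Every Oct4low array was above every other array. The change in Oct4hi against Oct4low BCCs was -0.33 (SE 0.07, adjusted p = 0.00469, limma). The change of -0.28 in Oct4med against Oct4low BCCs (adjusted p = 0.0495) was lost when any one of the 10 arrays was left out.

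COL6A1, a chain of the beaded filaments around cells, had the same order. Its brighter probe set read 9.96, 10, 9.94 and 10.04 in Oct4hi, 10.01 and 10.03 in Oct4med, and 10.31, 10.28, 10.29 and 10.31 in Oct4low BCCs. Oct4hi BCCs were lower than Oct4low BCCs (-0.31, SE 0.06, adjusted p = 0.00243, limma). The -0.28 in Oct4med against Oct4low BCCs (adjusted p = 0.0235) was lost without either Oct4med array (0.0661 to 0.0997). A dimmer probe set of COL6A1 gave -0.01 for Oct4hi minus Oct4low (95% interval -0.19 to 0.17). The 2 probe sets thus disagree. COL9A2, COL23A1, COL26A1 and COL6A3 did not pass in any comparison.

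**Figure D2:**
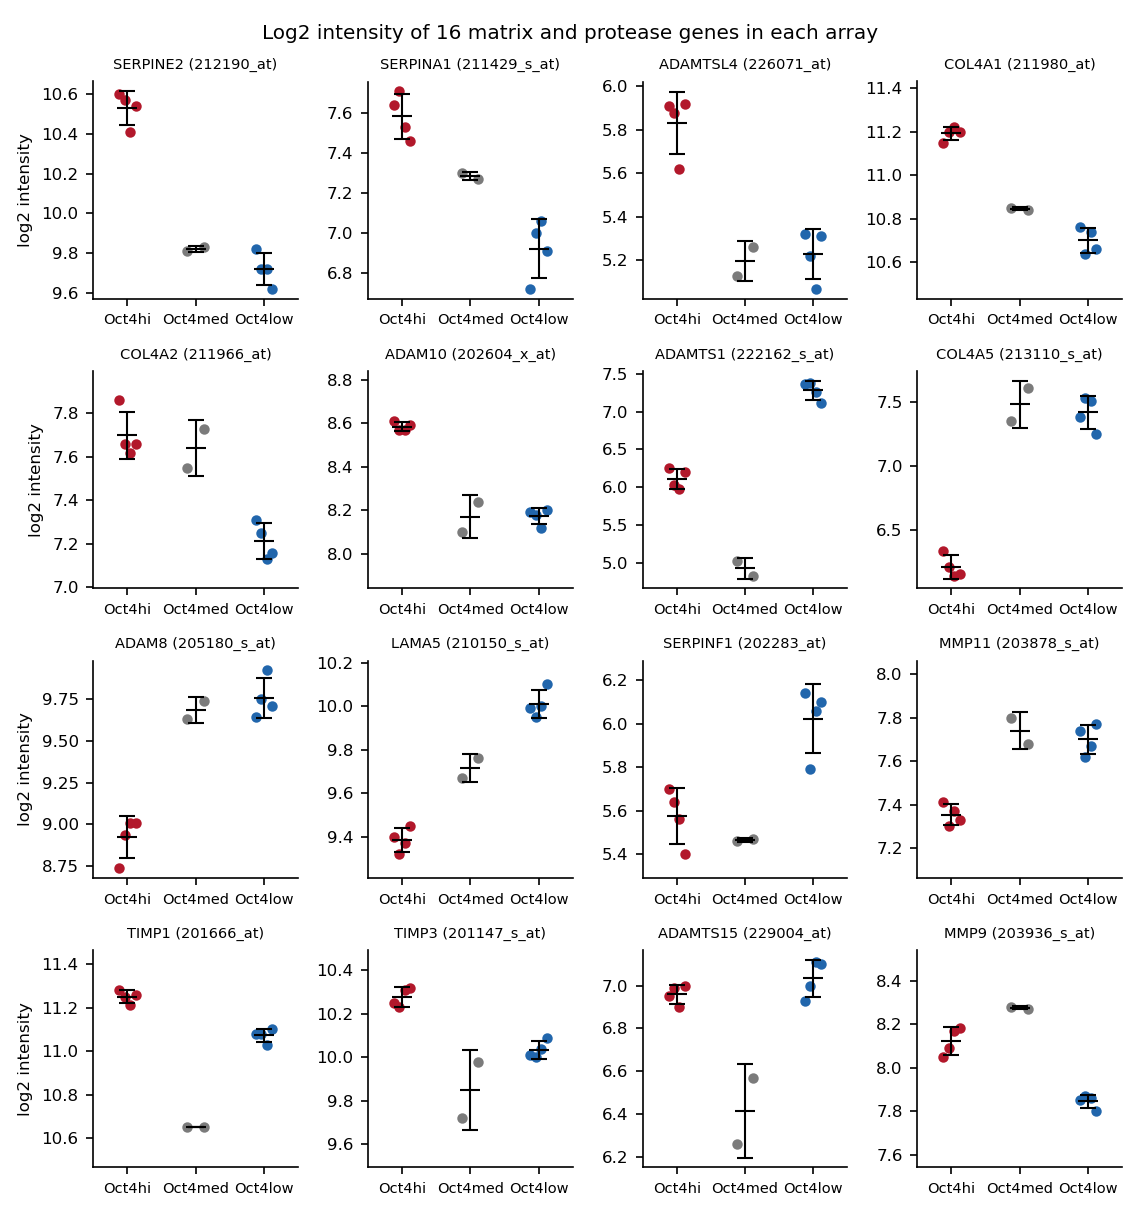
Log2 intensity (vertical axes, each with its own range of at least 1 unit) of 16 genes in every array of Oct4hi, Oct4med and Oct4low BCCs; points are arrays, the horizontal mark is the mean and bars are 1 SD (n = 4, 2 and 4). COL4A5 and ADAM8 are low in Oct4hi BCCs, with means of 6.21 and 8.92, SERPINE2 is high there (10.53), and ADAMTS1 is lowest in Oct4med BCCs (4.92).

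Secreted MMPs digest matrix proteins outside the cell. Of 10 such genes 3 were tested. MMP9, a gelatinase that cuts type IV collagen, read 8.05, 8.09, 8.17 and 8.18 in Oct4hi BCCs, 8.28 and 8.27 in Oct4med BCCs, and 7.85, 7.87, 7.86 and 7.80 in Oct4low BCCs. All 4 Oct4low arrays were below all others. MMP9 rose by 0.28 in Oct4hi BCCs (SE 0.06, adjusted p = 0.00622, limma) and by 0.43 in Oct4med BCCs (SE 0.08, adjusted p = 0.00247, limma) over Oct4low BCCs, and both calls held without each array. MMP11, or stromelysin-3, read 7.41, 7.30, 7.37 and 7.33 in Oct4hi BCCs, 7.80 and 7.68 in Oct4med BCCs, and 7.74, 7.62, 7.67 and 7.77 in Oct4low BCCs. It was lower in Oct4hi BCCs than in Oct4low BCCs (-0.35, SE 0.07, adjusted p = 0.00244, limma) and than in Oct4med BCCs (-0.39, adjusted p = 0.00581, and 0.073 without Oct4med replicate 1). A second probe set of MMP11 was too dim for the test. Fitted without the filter on low values, it gave 0 for Oct4hi minus Oct4low (adjusted p = 0.984, limma). For Oct4hi minus Oct4med it gave -0.26 (adjusted p = 0.189, limma). MMP2, the other gelatinase, was near the array medians at 4.82 ± 0.22 in Oct4hi, 5.17 ± 0.19 in Oct4med and 5.03 ± 0.21 in Oct4low BCCs. Oct4hi minus Oct4low was -0.21 (95% interval -0.49 to 0.07, adjusted p = 0.231) and Oct4hi minus Oct4med was -0.35 (95% interval -0.69 to -0.01, adjusted p = 0.116, limma). A second probe set of MMP2 was too dim for the test, and its Oct4hi arrays were below all others. In a fit without the filter on low values it gave -0.25 against Oct4low (adjusted p = 0.0618, limma) and -0.39 against Oct4med BCCs (adjusted p = 0.0286, limma).

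The collagenase MMP1 lay under the level of the test. It read 4.66, 4.38, 4.29 and 4.38 in Oct4hi BCCs, 3.32 and 3.66 in Oct4med BCCs, and 4.78, 4.34, 4.59 and 4.41 in Oct4low BCCs. Both Oct4med arrays were below all others. In a fit without the filter on low values, MMP1 was lower in Oct4med BCCs than in Oct4low BCCs (-1.04, adjusted p = 0.000162, limma) and Oct4hi BCCs exceeded Oct4med BCCs by 0.94 (adjusted p = 0.000541, limma). Its neighbours in the MMP cluster of chromosome 11, MMP3, MMP10, MMP12 and MMP20, had means of 2.96 to 3.89 in every subset, and none of them passed even in that fit. Of the 98 untested member probe sets, 2 were lower in Oct4hi against Oct4low BCCs in that fit and none higher. A share of 17.5% of all probe sets was called there in either direction. In Oct4med against Oct4low BCCs 4 of the 98 were lower and none higher (9.16% of all probe sets), and in Oct4hi against Oct4med BCCs 3 were higher and 2 lower (10.7%).

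**Figure D3:**
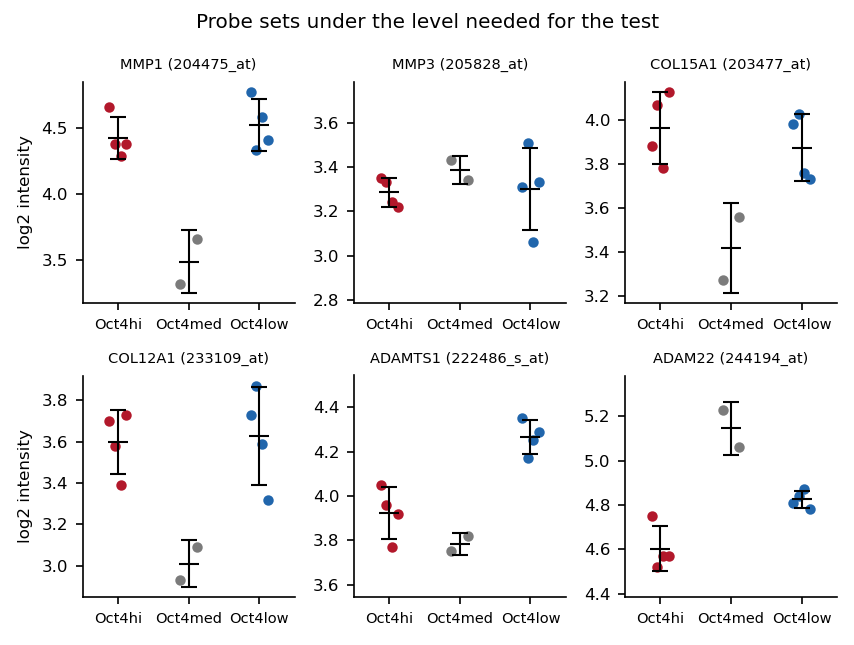
Log2 intensity (vertical axes, each with its own range of at least 1 unit) of 6 probe sets that reached the array median in fewer than 2 arrays, in every array of Oct4hi, Oct4med and Oct4low BCCs; points are arrays, the mark is the mean and bars are 1 SD (n = 4, 2 and 4). MMP1, COL15A1 and the dim probe set of COL12A1 are lowest in both Oct4med arrays, with Oct4med means of 3.49, 3.41 and 3.01, and MMP3 lies near 3.3 in all subsets.

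Membrane-type MMPs act at the cell surface, and MMP14 is the activator of MMP2. MMP14 was at 8.01 ± 0.039 in Oct4hi, 8.09 ± 0.12 in Oct4med and 8.16 ± 0.15 in Oct4low BCCs, and did not pass (Oct4hi minus Oct4low -0.15, 95% interval -0.33 to 0.03). MMP15 read 6.93, 7.03, 6.80 and 6.90 in Oct4hi, 6.80 and 6.73 in Oct4med, and 6.62, 6.73, 6.57 and 6.67 in Oct4low BCCs. Oct4hi arrays were above all Oct4low arrays, by 0.27 on average (SE 0.07, adjusted p = 0.0138, limma). A second probe set of MMP15 was not called there (0.15, adjusted p = 0.362) and was at 6.18 ± 0.062 in Oct4hi, 6.44 ± 0.25 in Oct4med and 6.02 ± 0.26 in Oct4low BCCs. MMP25, known from leukocytes, was highest in Oct4med BCCs (5.21 ± 0.083 in Oct4hi, 5.54 ± 0.13 in Oct4med and 5.26 ± 0.052 in Oct4low BCCs). The MMP25 means in Oct4hi and Oct4low BCCs lay near the array medians. Oct4hi minus Oct4med was -0.33 (adjusted p = 0.0199, and 0.203 without Oct4med replicate 1), and the 0.28 of Oct4med over Oct4low BCCs (adjusted p = 0.0477) was lost without 9 of the 10 arrays, all except Oct4med replicate 2. MMP17 did not pass, and MMP16 and MMP24 were too dim.

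All 3 TIMP genes measured here were called higher in Oct4hi BCCs than in both other subsets (background 20.4% of genes over Oct4low and 18.2% over Oct4med BCCs), but the 3 calls over Oct4low BCCs and that of TIMP2 over Oct4med BCCs were lost when the values were quantile normalized again. TIMP1, the inhibitor of most secreted MMPs, read 11.28, 11.25, 11.21 and 11.26 in Oct4hi BCCs, 10.65 and 10.65 in Oct4med BCCs, and 11.08, 11.08, 11.03 and 11.10 in Oct4low BCCs. The 3 subsets did not overlap and Oct4med BCCs were lowest. Oct4hi minus Oct4med was 0.60 (SE 0.08, adjusted p = 0.000186, limma) and Oct4med minus Oct4low was -0.43 (SE 0.08, adjusted p = 0.00204, limma). The 0.18 of Oct4hi over Oct4low BCCs (adjusted p = 0.043) was lost without any one of the 8 arrays of these subsets (0.0528 to 0.103). TIMP2, which inhibits MMPs and also brings MMP2 to MMP14, read 9.22, 9.32, 9.27 and 9.39 in Oct4hi, 9.10 and 9.03 in Oct4med, and 9.08, 9.08, 9.10 and 9.07 in Oct4low BCCs. Every Oct4hi array was above every other one. The difference was 0.22 against Oct4low BCCs (adjusted p = 0.0216, lost without Oct4hi replicate 2 or 4 or Oct4low replicate 2, 0.0524 to 0.0589) and 0.23 against Oct4med BCCs (adjusted p = 0.0476, lost without 9 of the 10 arrays, all except Oct4low replicate 3). After quantile normalization, TIMP2 was 0.13 above Oct4low (adjusted p = 0.173) and 0.07 above Oct4med BCCs (adjusted p = 0.562), and TIMP1 was 0.10 above Oct4low BCCs (adjusted p = 0.273).

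TIMP3, which binds to the matrix and also inhibits ADAM17 and several ADAMTS enzymes, read 10.25, 10.23, 10.31 and 10.32 in Oct4hi BCCs, 9.72 and 9.98 in Oct4med BCCs, and 10.01, 10, 10.04 and 10.09 in Oct4low BCCs. Oct4hi arrays were above all others. The difference was 0.24 against Oct4low BCCs (SE 0.07, adjusted p = 0.022, but 0.0591 without Oct4low replicate 2 and 0.112, with a change of 0.15, after quantile normalization) and 0.43 against Oct4med BCCs (adjusted p = 0.00482, and 0.0807 without Oct4med replicate 1). A second probe set of TIMP3 gave 0.29 for Oct4hi over Oct4low BCCs (adjusted p = 0.0234, limma) but 0.07 over Oct4med BCCs (adjusted p = 0.672). By brightest probe set, the TIMP changes in Oct4hi against Oct4low BCCs were all under 0.25.

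ADAMs with an active protease site had 7 of 8 genes tested. Of these, 2 were higher and 1 lower in Oct4hi against Oct4low BCCs (background 20.4% and 14.8% of all genes). ADAM8, a sheddase known from leukocytes and from invasive breast cancer cells, read 8.74, 8.94, 9.01 and 9.01 in Oct4hi BCCs, 9.63 and 9.74 in Oct4med BCCs, and 9.64, 9.75, 9.92 and 9.71 in Oct4low BCCs. Oct4hi arrays were below all others. It fell in Oct4hi BCCs by 0.83 (SE 0.09, adjusted p = 3.17e-05, limma) against Oct4low BCCs and by 0.76 (SE 0.11, adjusted p = 0.000396, limma) against Oct4med BCCs. Another probe set of ADAM8, near 5.4, gave 0.04 for Oct4hi minus Oct4low (95% interval -0.19 to 0.27) and -0.08 for Oct4hi minus Oct4med (95% interval -0.37 to 0.21). ADAM10, a main sheddase of cadherins, read 8.61, 8.57, 8.57 and 8.59 in Oct4hi BCCs, 8.10 and 8.24 in Oct4med BCCs, and 8.19, 8.18, 8.12 and 8.20 in Oct4low BCCs. It rose by 0.42 in Oct4hi BCCs against either of the others (adjusted p = 0.000567 against Oct4low and 0.00282 against Oct4med BCCs, limma). The probe set carries the suffix _x_at, which marks probes that can bind other transcripts, and the second one gave 0.40 against Oct4low BCCs (adjusted p = 0.0249, limma) but 0.09 against Oct4med BCCs (adjusted p = 0.683), so the rise over Oct4med BCCs rests on the _x_at probe set.

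ADAM19 read 8.61, 8.64, 8.61 and 8.79 in Oct4hi BCCs, 8.32 and 8.27 in Oct4med BCCs, and 8.37, 8.43, 8.36 and 8.33 in Oct4low BCCs. It was higher in Oct4hi BCCs, by 0.29 against Oct4low (SE 0.07, adjusted p = 0.00709, limma) and by 0.37 against Oct4med BCCs (SE 0.09, adjusted p = 0.00884, limma). The second call was lost after quantile normalization (0.22, adjusted p = 0.0868). ADAM17, the sheddase of TNF and of EGF receptor ligands, did not pass: it was at 7.46 ± 0.14 in Oct4hi, 7.74 ± 0.082 in Oct4med and 7.54 ± 0.078 in Oct4low BCCs. ADAM9, ADAM12 and ADAM28 did not pass either, nor did ADAM11, ADAM22 and ADAM23, which lack a working protease site.

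The change of Oct4med against Oct4low BCCs was widest in ADAMTS1, a secreted protease that cuts the proteoglycans versican and aggrecan. ADAMTS1 read 6.25, 6.03, 5.97 and 6.20 in Oct4hi BCCs, 5.02 and 4.83 in Oct4med BCCs, and 7.37, 7.38, 7.26 and 7.11 in Oct4low BCCs. The subsets did not overlap, Oct4low BCCs were highest, and the Oct4med arrays lay below all array medians. The change was -1.17 in Oct4hi against Oct4low BCCs (SE 0.09, adjusted p = 3.36e-06, limma), -2.36 in Oct4med against Oct4low BCCs (SE 0.11, adjusted p = 1.1e-07, limma) and 1.19 in Oct4hi against Oct4med BCCs (SE 0.11, adjusted p = 2.22e-05, limma). All 3 held without each array and under the other settings run, which for this probe set leave out the one without _x_at and _s_at probe sets. A second probe set near 4, under the level of the test, kept the order of the means (3.92, 3.79 and 4.27 in Oct4hi, Oct4med and Oct4low BCCs), but its Oct4hi and Oct4med arrays overlapped. In the fit without the filter it was lower in Oct4hi (-0.34, adjusted p = 0.0133, limma) and Oct4med (-0.48, adjusted p = 0.0093, limma) than in Oct4low BCCs. Oct4hi minus Oct4med was 0.14 for it (adjusted p = 0.441, limma).

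ADAMTSL4, a protein related to ADAMTS enzymes but with no protease part, which binds fibrillin fibres, read 5.91, 5.88, 5.62 and 5.92 in Oct4hi BCCs, 5.13 and 5.26 in Oct4med BCCs, and 5.32, 5.22, 5.07 and 5.31 in Oct4low BCCs. Oct4hi arrays were above all others, by 0.61 against Oct4low (SE 0.09, adjusted p = 0.000419, limma) and 0.64 against Oct4med BCCs (SE 0.11, adjusted p = 0.00168, limma). The ADAMTSL4 values in Oct4med and Oct4low BCCs lay near the array medians, and 1 of the 2 Oct4med arrays reached its median. ADAMTS15 read 6.95, 6.99, 6.90 and 7 in Oct4hi BCCs, 6.26 and 6.57 in Oct4med BCCs, and 6.93, 7, 7.11 and 7.10 in Oct4low BCCs. Like ADAMTS1 it was lowest in Oct4med BCCs, by -0.62 against Oct4low BCCs (SE 0.10, adjusted p = 0.00104, limma), with Oct4hi BCCs 0.55 above Oct4med BCCs (adjusted p = 0.00232, limma). A second probe set of ADAMTS15, under the level of the test, was highest in Oct4med BCCs (means of 4.89 in Oct4hi, 5.06 in Oct4med and 4.8 in Oct4low BCCs). In the fit without the filter it gave 0.25 for Oct4med minus Oct4low (adjusted p = 0.232, limma). For Oct4hi minus Oct4med it gave -0.17 (adjusted p = 0.404, limma). Of the 11 tested ADAMTS and ADAMTS-like genes, 3 others had calls near the threshold. ADAMTS6 was higher in Oct4hi than in Oct4med BCCs (0.28, adjusted p = 0.0432), and its second probe set lower in Oct4hi than in Oct4low BCCs (-0.25, adjusted p = 0.0458). ADAMTS14 (-0.24, adjusted p = 0.0364) and ADAMTSL1 (-0.37, adjusted p = 0.0489) were lower in Oct4hi against Oct4low BCCs with overlapping arrays. ADAMTSL1 was lost without 7 of the 10 arrays, all except Oct4hi replicate 2, Oct4hi replicate 3 and Oct4low replicate 2, and ADAMTS6 without 7, all except Oct4hi replicate 3, Oct4low replicate 1 and Oct4low replicate 3.

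Secreted serpins had 8 of 13 genes tested (SERPINA2, annotated as a pseudogene, was among the untested ones). Of the tested genes, 2 were higher and 1 lower in Oct4hi against Oct4low BCCs (background 20.4% and 14.8% of all genes). SERPINE2, protease nexin-1, which inhibits thrombin, urokinase and plasmin at the cell surface, read 10.60, 10.57, 10.41 and 10.54 in Oct4hi BCCs, 9.81 and 9.83 in Oct4med BCCs, and 9.82, 9.72, 9.72 and 9.62 in Oct4low BCCs. Oct4hi arrays were above all others. It rose in Oct4hi BCCs by 0.81 (SE 0.07, adjusted p = 9.03e-06, limma) against Oct4low BCCs and by 0.71 (SE 0.09, adjusted p = 0.000177, limma) against Oct4med BCCs. SERPINA1, the antitrypsin that inhibits neutrophil elastase, followed the order of the gates. It read 7.64, 7.71, 7.53 and 7.46 in Oct4hi BCCs, 7.30 and 7.27 in Oct4med BCCs, and 6.72, 7, 7.06 and 6.91 in Oct4low BCCs. The subsets did not overlap, and Oct4hi minus Oct4low was 0.66 (SE 0.09, adjusted p = 0.00019, limma). Oct4med minus Oct4low was 0.36 (adjusted p = 0.0327, lost without either Oct4med array or Oct4low replicate 1 or 4, 0.0584 to 0.136) and Oct4hi minus Oct4med was 0.30 (adjusted p = 0.0569). A second probe set passed in all 3 comparisons, at 0.79, 0.40 and 0.39 for Oct4hi minus Oct4low, Oct4med minus Oct4low and Oct4hi minus Oct4med.

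SERPINF1, the anti-angiogenic factor PEDF, went the other way. It read 5.70, 5.64, 5.56 and 5.40 in Oct4hi, 5.46 and 5.47 in Oct4med, and 6.14, 5.79, 6.06 and 6.10 in Oct4low BCCs. All Oct4low arrays were above all others, and the change was -0.45 in Oct4hi BCCs (SE 0.09, adjusted p = 0.00326, limma) and -0.56 in Oct4med BCCs (SE 0.11, adjusted p = 0.0048, limma). SERPINA4, or kallistatin, was highest in Oct4med BCCs (5.32 ± 0.034 in Oct4hi, 5.65 ± 0.26 in Oct4med and 5.11 ± 0.13 in Oct4low BCCs). It was near the array medians, which 2 of the 4 Oct4low arrays reached. Oct4med minus Oct4low was 0.54 (adjusted p = 0.00612, and 0.0896 without Oct4med replicate 1). Oct4hi minus Oct4med was -0.33 for SERPINA4 (adjusted p = 0.0475, lost without any Oct4hi array, Oct4med replicate 1 or Oct4low replicate 1 or 2, 0.061 to 0.517) and -0.39 for SERPINA10 (adjusted p = 0.0266, lost without Oct4hi replicate 1 or 4 or Oct4med replicate 1, 0.0582 to 0.191). SERPINA3, SERPINA5 and SERPING1 did not pass.

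Of the clade B serpins, which mostly stay inside cells, 2 of 8 were tested. SERPINB1, an inhibitor of neutrophil elastase, read 9.32, 9.38, 9.45 and 9.20 in Oct4hi BCCs, 9.62 and 9.62 in Oct4med BCCs, and 9.70, 9.56, 9.79 and 9.72 in Oct4low BCCs. All Oct4hi arrays were below all others. The fall against Oct4low BCCs was -0.36 (SE 0.08, adjusted p = 0.00432, limma). The -0.28 against Oct4med BCCs (adjusted p = 0.045) was lost without 7 of the 10 arrays, all except Oct4hi replicate 3, Oct4low replicate 2 and Oct4low replicate 3. A total of 3 of 4 probe sets of SERPINB1 were lower in Oct4hi against Oct4low BCCs, with changes of -0.36, -0.33 and -0.35, and the fourth gave 0.00 (95% interval -0.17 to 0.17). SERPINB8 did not pass. MMP24OS, a gene opposite to MMP24 that RefSeq annotates as protein coding, was at 8.81 in Oct4hi, 8.73 in Oct4med and 8.99 in Oct4low BCCs and passed in no comparison.

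Probe sets of a gene were not always called together. Of 19 genes with several tested probe sets, all probe sets were called in 5 genes in Oct4hi against Oct4low BCCs (ADAM10, ADAMTSL1, COL4A1, SERPINA1 and TIMP3) and some of them in 6 (ADAM8, ADAMTS6, COL5A1, COL6A1, MMP15 and SERPINB1). In Oct4med against Oct4low BCCs all were called in 1 gene (SERPINA1) and some in 4. No gene had probe sets called in opposite directions in any comparison.

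**Figure D4:**
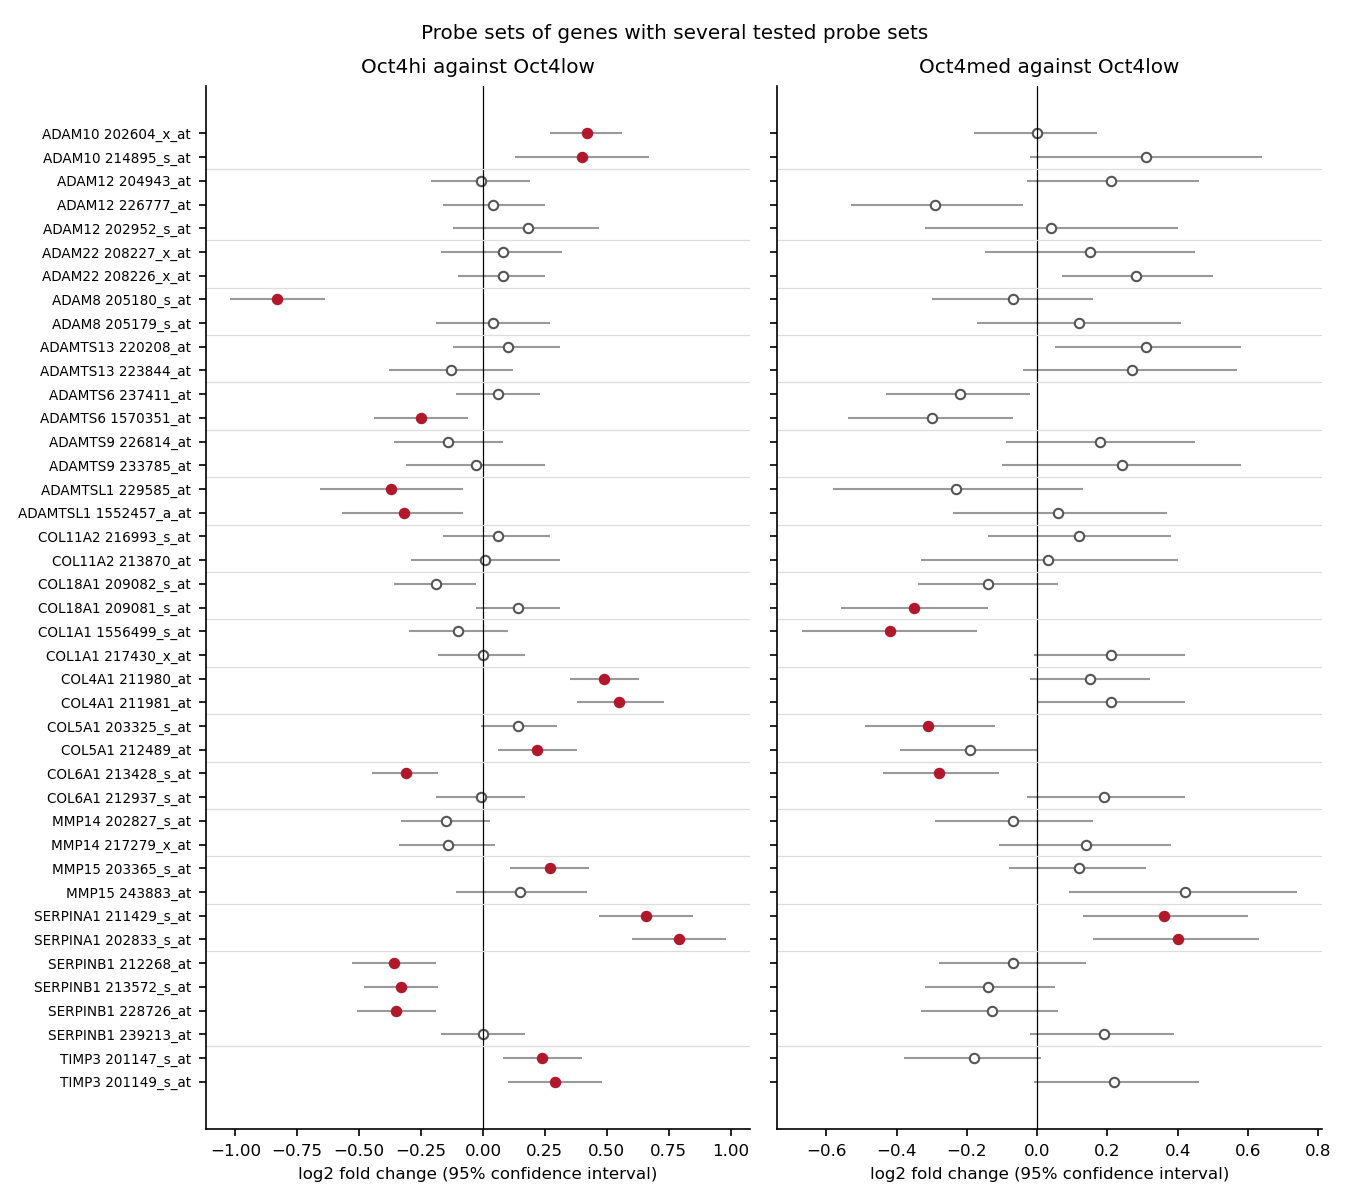
Log2 fold change with its 95% confidence interval (horizontal axes) for each tested probe set of the 19 genes that have several (rows), Oct4hi against Oct4low BCCs at left and Oct4med against Oct4low BCCs at right; filled red points passed an adjusted p of 0.05. The 2 probe sets of COL4A1 (0.49 and 0.55) and of SERPINA1 (0.66 and 0.79) lie together at left, while those of ADAM8 (-0.83 and 0.04) do not.

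The position of Oct4med BCCs varied among the members. Of the 34 probe sets called in Oct4hi against Oct4low BCCs, the Oct4med mean lay between the other subsets in 19 (55.9%, against 53.0% of all called probe sets), beyond Oct4low BCCs in 11 (32.4% against 25.0%) and beyond Oct4hi BCCs in 4 (11.8% against 22%). LAMA5 and SERPINA1 were of the first kind, COL4A5 and ADAMTSL4 of the second, and MMP9 and SERPINF1 of the third. The kinds go by the means alone, however close these are. Oct4med minus Oct4low was 0.06 for COL4A5 (adjusted p = 0.715, limma) and -0.03 for ADAMTSL4 (adjusted p = 0.865, limma). For MMP9, Oct4hi minus Oct4med was -0.16 (adjusted p = 0.157, limma). ADAMTS1, TIMP1 and COL12A1 were lowest in Oct4med BCCs. In all, 5 of 85 member probe sets passed in all 3 comparisons (ADAMTS1, COL12A1, LAMA5, TIMP1 and 1 of SERPINA1), against 535 of 13872. Among the tested members, changes of over 2-fold were seen for ADAMTS1 in all 3 comparisons and for COL4A5 in Oct4hi BCCs against both other subsets. The share of all tested probe sets past 2-fold was not counted.

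Genes that act with these proteins moved in both directions too. Of 10 tested genes of collagen synthesis and crosslinking, 2 were higher and 4 lower in Oct4hi against Oct4low BCCs, where 20.4% of all genes were higher and 14.8% lower. Among the crosslinking lysyl oxidases LOXL4 was higher (0.58, adjusted p = 0.000142, limma) and LOX lower (-0.49, adjusted p = 0.0003, limma), and the lysyl hydroxylase PLOD2 was lower (-0.37, adjusted p = 0.00225, limma). Of 11 genes of the plasminogen system, cathepsins and their partners, 1 was higher and 4 lower, with CTSD at -0.47 (adjusted p = 0.00394) and CTSK at -0.46 (adjusted p = 0.0055), both lysosomal proteases, and CTSV at 0.31 (adjusted p = 0.0029). Of 10 basement membrane partners and receptors, 1 was higher and 4 lower. The integrin chains ITGB4, of the laminin receptor of hemidesmosomes, and ITGA2, of a collagen receptor, were lower (-0.78, adjusted p = 0.000147, and -0.64, adjusted p = 0.000234), while the collagen receptor kinase DDR2 was higher (0.65, adjusted p = 8.1e-05, limma).

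Markers of other cells were followed because fibroblasts and leukocytes make many of the same proteins. Of 8 fibroblast markers 4 were tested and 1, ACTA2, was higher in Oct4hi against Oct4low BCCs (0.38, adjusted p = 0.0143, limma), with LUM near 2.7 and POSTN near 3.1. The sum of the log2 values of the list ranged over 37.4 to 38.2 in Oct4hi, 37.2 to 37.7 in Oct4med and 37.0 to 37.6 in Oct4low BCCs. Of 5 leukocyte markers none passed in Oct4hi against Oct4low BCCs, CD14 was lower in Oct4med against Oct4low BCCs (-0.50, adjusted p = 0.0339), the sums were 22.1 to 22.6 in Oct4hi, 21.8 to 23.0 in Oct4med and 22.3 to 23.3 in Oct4low BCCs, and the defining gene PTPRC lay at 3.09 to 3.19. The luminal marker GATA3 was lower in Oct4hi against Oct4low BCCs (-0.76, adjusted p = 7.3e-05, limma). The other tested luminal genes were not called there: EPCAM went the other way (0.18, adjusted p = 0.0896, limma) and ESR1 gave -0.25 (adjusted p = 0.0508, limma). The sums of the 5 luminal genes were 27.6 to 28.4 in Oct4hi, 28.8 in both Oct4med arrays and 28.6 to 29.3 in Oct4low BCCs. The erythroid gene HBE1 was higher in Oct4hi and Oct4med against Oct4low BCCs (0.73 and 0.68). TAL1 of the same list was not called in either (0.04 and 0.03), and ALAS2 lay at 3.39 to 3.62, too dim for the test. The sums of these 3 genes were 17.2 to 17.9 in Oct4hi, 17.0 to 17.3 in Oct4med and 16.4 to 16.9 in Oct4low BCCs. Their part in the results was not tested.

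Promoter windows were found for 76 of the 118 genes (94 windows, RefSeq, GRCh38.p14), and ADAMTS1 had none. The letters TGACTCA, the site of AP-1 in many MMP genes, were found on either strand in 4.26% of member windows and 4.95% of all 35116 windows. The octamer ATGCAAAT, which POU factors bind, was found in 1.06% and 1.77%, its only member being COL23A1. TATAAA was found in 19.1% and 11.5%, with COL7A1, COL13A1, COL18A1 and SERPINB8 as the tested genes. These are matches of letters in a short window and say nothing of binding.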

How the data were processed

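Total RNA (100 ng) from each sorted subset had been hybridized to Affymetrix U133 Plus 2.0 arrays. The deposited values are log2 intensities that the authors background-corrected and RMA normalized in BRB-Array Tools, leaving out features near background or with little change, so the 25750 probe sets are not the whole array. Here, 13872 probe sets were tested with limma 3.58.1 in R 4.3.3, from 1 linear model of the 10 arrays with 3 subset means, two-sided, adjusted by Benjamini-Hochberg over all of them; 21 control probe sets that also passed the filter were left out. The scripts were tested on simulated data. Members, role lists, neighbour lists and markers were chosen with earlier results of these data known. Gene symbols came from the platform annotation. Named were, per comparison, up to 12 genes with the largest rise and 12 with the largest fall among called genes whose arrays did not overlap, up to 4 of each role, the 10 brightest, MMP2 and up to 3 of each neighbour or marker list, with others named only by role. Alternatives were other filters, scalings, fits, variance models, probe sets and a t-test without the random variance model of the study, and leaving out each array. All 10 arrays were used, and their number limits the precision, most of all for Oct4med BCCs.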

Additional observations from a re-analysis of the deposited data

Results flagged for a closer look

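In 7 of 94 sets of 4 replicate values examined, the gap between 1 array and the nearest other was large for the range of the 4, where chance alone would give about 4.7 (1 in 20). Oct4hi replicate 3 read 5.62 for ADAMTSL4, against 5.88 to 5.92 in the other Oct4hi arrays. Oct4hi replicate 1 read 7.86 for COL4A2 (others 7.62 to 7.66) and 5.16 for ADAMTSL1 (others 5.67 to 5.77). Oct4hi replicate 4 read 8.79 for ADAM19 (others 8.61 to 8.64). Oct4hi replicate 2 read 5.50 for ADAM22, where the others were all at 5.48, a gap that is small beside the median replicate SD of 0.12. Oct4low replicate 3 read 11.74 for COL13A1 (others 11.50 to 11.54), and Oct4low replicate 4 read 6.26 for SERPINB8 (others 5.89 to 5.92). The calls of ADAMTSL4, COL4A2, ADAM19 and COL13A1 in Oct4hi against Oct4low BCCs held without the array in question, and that of ADAMTSL1 was lost.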

How the results depend on the processing

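Of 60 named values past the threshold, 23 passed under every alternative that could be run for them (6 of these under all alternatives) and 34 when each array was left out, and none changed direction. Only 32 had a value without _x_at and _s_at probe sets, and 50 under the stricter filter. Counts below are of member probe sets, higher and lower in that order. The members tested and the share of all probe sets called under each setting are not given. The counts therefore cannot show whether a move was particular to the members. Leaving out each array gave 13 to 18 and 11 to 15 for Oct4hi against Oct4low BCCs, 2 to 6 and 5 to 10 for Oct4med against Oct4low BCCs, 11 to 18 and 3 to 9 for Oct4hi against Oct4med BCCs, and 31 to 42 for the F-test. Without Oct4med replicate 1 the counts were 2 and 5 for Oct4med against Oct4low and 11 and 3 for Oct4hi against Oct4med BCCs, and without Oct4hi replicate 4 the lower count of the last was 5; a lone Oct4med array was assumed to vary like the other subsets. Without probe sets marked _x_at or _s_at (fewer tested), counts were 9 and 7 for Oct4hi against Oct4low, 2 and 4 for Oct4med against Oct4low, 10 and 3 for Oct4hi against Oct4med BCCs, and 20 for the F-test. The methods' t-test at an unadjusted p under 0.001 gave 8 lower for Oct4hi against Oct4low, 1 and 3 for Oct4med against Oct4low, 6 and 1 for Oct4hi against Oct4med BCCs, and 23 for the F-test; after Benjamini-Hochberg it gave 1 and 3 for Oct4med against Oct4low and 4 lower for Oct4hi against Oct4med BCCs. For Oct4med against Oct4low BCCs quantile normalization gave 7 lower and a fit of the compared subsets alone 6 lower, and for Oct4hi against Oct4med BCCs they gave 15 lower and 5 lower. With the replicate number as a block, counts were 2 and 4 for Oct4med against Oct4low and 5 lower for Oct4hi against Oct4med BCCs, and 18 of the 60 named values did not pass. The main fit had no block because the methods of the study do not use it. Deviations from subset means correlated with r of -0.26 to 0.28 between same-numbered arrays. The 2 Oct4med arrays deviate from their mean equally in opposite directions, so their correlations are not separate checks. The cause of the other moves was not tested. Signal near background limits the 98 untested probe sets, which were fitted only without the filter.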
